A study of Mus musculus with 2 samples.

Results

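DNase I hypersensitive sites (DHSs) are short stretches of chromatin that the enzyme DNase I cuts more than their surroundings. The sites described here lay between genes but within 50 kb of one: 3857 of the 26012 DHSs called in both libraries, or 14.8% (exact 95% binomial interval 14.4 to 15.3). A member was the union of overlapping calls that held a call of each library. Its centre lay outside every protein-coding gene body, more than 1 kb from any protein-coding or long non-coding transcription start site (TSS), and 1 to 50 kb from the nearest protein-coding TSS. The rule used positions and the presence of calls, and no signal value. Of the other shared DHSs, 15129 lay within 1 kb of a TSS (promoter DHSs), 4898 in gene bodies (genic DHSs) and 2128 between genes beyond 50 kb.

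Tissue came from untreated female B6CASTF1/J mice, a first-generation hybrid strain, at 4 days of age, and DNase-seq was run on their left cerebral cortex. There was 1 group with 2 libraries, replicate 1 and replicate 2. The labels number the animals separately under a single donor record for the strain. With 1 group and 2 libraries no test between conditions was possible, so values are given for both libraries, and intervals cover counting error only.

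DHSs away from promoters include enhancers, which bind transcription factors and act on promoters at a distance, and insulator sites, which bind the zinc finger protein CTCF and anchor chromatin loops with cohesin. A bound protein can shield its site from DNase I and leave a short protected interval, a footprint, inside the DHS. In the cortex of newborn mice, neurons are still maturing, astrocytes are multiplying and oligodendrocyte precursors are spreading. Bulk tissue mixes these cells, so a site open in few cells and a site weakly open in many cannot be told apart.

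The sequences below, from the GRCm38 (mm10) reference genome, show the kinds of members the results turn on. All are printed on the plus strand, and their coordinates, in the order printed, are Ppp1r1b chr11:98342661-98342900, Slc17a7 chr7:45162201-45162500, Sema3b chr9:107612721-107612940, Foxk1 chr5:142367321-142367580, Fos chr12:85485981-85486280 and Lrp3 chr7:35234741-35234980. Each is named by the gene with the nearest TSS, which need not be a gene it acts on. Ppp1r1b held the highest-ranked CTCF match. Slc17a7 was the highest-ranked member near a gene of glutamatergic neurons. Sema3b and Foxk1 held the highest-ranked matches to the cyclic AMP response element (CRE) and to the NRF1 consensus. Fos stands for genes switched on by neuronal activity, and Lrp3, chosen after its values were seen, for members that overlap a tRNA gene. Capitals mark consensus matches in the central 150 bp. These are CTCF and CACCTG, the reverse complement of the TCF4 E-box, in Ppp1r1b. In Slc17a7 they are, from the left, the reverse complement of the NEUROD E-box, joined TBR1 and TCF4 E-box matches, and CTCF. The CTCF match of Slc17a7 holds a further TCF4 E-box match, CAGGTG. The capitals are the CRE in Sema3b, NRF1 in Foxk1, and SRF, SP and EGR (in that order) in Fos. In Lrp3 the capitals mark the tRNA gene, which is transcribed from the minus strand.
Ppp1r1b: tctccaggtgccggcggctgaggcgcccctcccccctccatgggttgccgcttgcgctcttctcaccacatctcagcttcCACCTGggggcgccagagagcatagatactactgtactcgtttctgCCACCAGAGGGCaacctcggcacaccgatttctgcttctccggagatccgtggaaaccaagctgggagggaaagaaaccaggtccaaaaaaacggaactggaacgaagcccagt
Slc17a7: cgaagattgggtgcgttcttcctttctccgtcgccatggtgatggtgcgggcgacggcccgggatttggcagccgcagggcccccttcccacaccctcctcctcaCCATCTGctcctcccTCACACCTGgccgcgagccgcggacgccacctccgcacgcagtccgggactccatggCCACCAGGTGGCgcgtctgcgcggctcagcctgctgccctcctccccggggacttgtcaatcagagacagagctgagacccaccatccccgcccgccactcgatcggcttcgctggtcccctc
Sema3b: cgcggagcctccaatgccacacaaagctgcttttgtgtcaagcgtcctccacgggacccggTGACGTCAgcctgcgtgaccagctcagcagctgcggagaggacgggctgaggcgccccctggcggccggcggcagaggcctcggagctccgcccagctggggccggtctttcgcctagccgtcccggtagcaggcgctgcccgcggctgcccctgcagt
Foxk1: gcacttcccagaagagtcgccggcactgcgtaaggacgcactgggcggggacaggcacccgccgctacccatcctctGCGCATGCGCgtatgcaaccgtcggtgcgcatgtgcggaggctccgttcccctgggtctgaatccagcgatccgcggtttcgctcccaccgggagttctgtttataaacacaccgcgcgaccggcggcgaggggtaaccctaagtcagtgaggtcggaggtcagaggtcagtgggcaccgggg
Fos: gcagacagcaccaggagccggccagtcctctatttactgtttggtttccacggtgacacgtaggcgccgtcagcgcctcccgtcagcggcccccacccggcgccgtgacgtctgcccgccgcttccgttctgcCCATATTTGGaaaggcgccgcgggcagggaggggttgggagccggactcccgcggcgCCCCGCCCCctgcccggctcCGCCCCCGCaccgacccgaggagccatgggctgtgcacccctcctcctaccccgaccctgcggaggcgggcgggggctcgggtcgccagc
Lrp3: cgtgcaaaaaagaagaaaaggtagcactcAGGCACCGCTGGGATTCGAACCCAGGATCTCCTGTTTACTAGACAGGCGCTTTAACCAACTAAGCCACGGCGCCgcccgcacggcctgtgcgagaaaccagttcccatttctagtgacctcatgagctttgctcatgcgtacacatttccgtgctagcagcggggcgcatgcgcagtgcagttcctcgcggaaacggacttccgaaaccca

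Members were narrow and of middling signal among shared DHSs. Their median width was 200 bp (quartiles 180 and 267, range 58 to 1960), against 390 bp for promoter DHSs, 208 bp for genic DHSs and 220 bp for intergenic DHSs beyond 50 kb. The signal value, the authors' density of tags at a call, had a median of 1.04 in replicate 1 (quartiles 0.775 and 1.42) and 1.92 in replicate 2 (quartiles 1.32 and 2.88). Because the scaling of this value is not stated, the libraries are given side by side and ranked separately. The median member stood at percentile 43.6 of all shared DHSs in replicate 1 and at percentile 39.8 in replicate 2. The medians of promoter DHSs were 1.33 and 3.30, those of genic DHSs 0.953 and 1.77, and those beyond 50 kb 0.827 and 1.57. Members were thus below promoter DHSs and above both other kinds in either library.

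The libraries ranked the members alike. Pearson's r of the log2 signal values was 0.873 and Spearman's rho 0.843 across the 3857 members. These describe sites that were called in both libraries and share a genome and a caller, and sites are not replicates. The same r was 0.925 across promoter DHSs and 0.856 across the intergenic DHSs beyond 50 kb. Calling was less alike than ranking: replicate 1 had 10703 calls at member positions, of which 37.2% overlapped a call of replicate 2, and replicate 2 had 7228, of which 54.8% overlapped one of replicate 1. Calls that the other library lacked were weaker, with medians of 0.159 against 1.03 in replicate 1 and 0.914 against 1.91 in replicate 2. The lenient list of the other library held 40.7% of the replicate 1 calls and 78.2% of the replicate 2 calls.

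**Figure D1:**
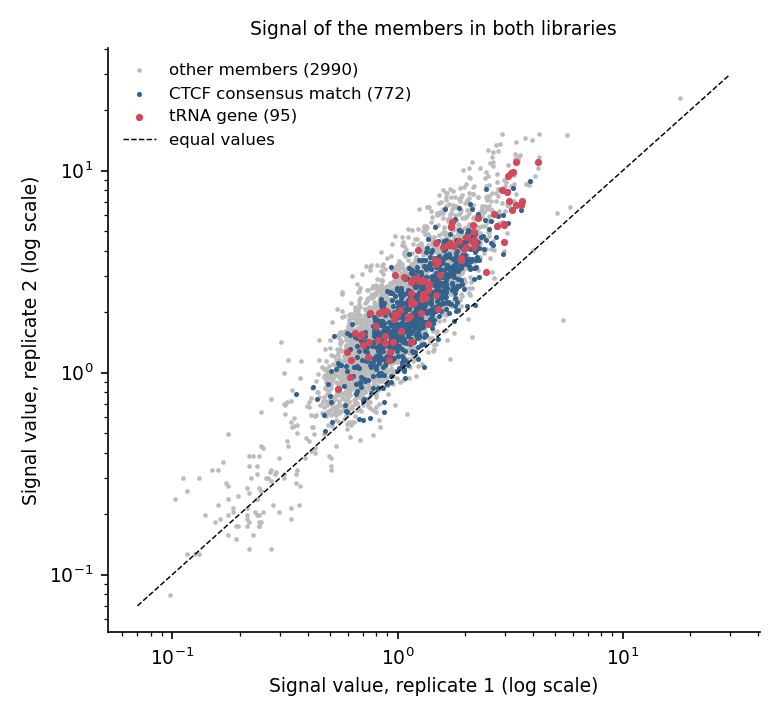
Signal value of each of the 3857 members in replicate 1 (x axis) and replicate 2 (y axis), both on log scales and in the authors' unit; points are coloured by a CTCF consensus match or a tRNA gene, and the member with both is drawn with the tRNA genes. Most points lie above the line of equal values, and the 95 members with a tRNA gene sit between 0.542 and 4.19 in replicate 1.

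The strongest member in both libraries lay 21.6 kb upstream of Igf2bp3, which encodes an RNA-binding protein, at chr6:49236421-49236620. Its signal values of 18.1 and 22.9 stood above those of the members next in mean rank: near Gm21887, a predicted gene, on chromosome X (5.65 and 15.1) and near Zfp239, a zinc finger gene (4.27 and 15.2). The fourth by mean rank was the Foxk1 member printed above, 34.0 kb upstream of this forkhead factor gene, with 3.97 and 14.2. A member 1.31 kb upstream of Ptma, the gene of prothymosin alpha, had 3.67 and 14.5. The rest of the 10 highest were near Gm21860, Pllp, Tle3, Tmpo and Trpv4, with 3.35 to 4.25 in replicate 1 and 10.3 to 13.9 in replicate 2. Tle3 encodes a Groucho corepressor, Tmpo a protein of the nuclear lamina and Trpv4 a cation channel. All 10 carried footprints in both libraries. Of the 10, 3 had copies elsewhere on the reference chromosomes, measured as 36-base words found again on either strand: 123 of the 165 words of the Igf2bp3 member (74.5%) recurred, on 8 chromosomes, all 165 of the Gm21887 member and 84.0% of those of the Gm21860 member. None of the words of the other 7 recurred. How tags from repeated sequence were placed is not given in the sources used here, and the part of these copies in the signal values was not tested.

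Over both sides together density fell with distance from the TSS, but downstream it rose up to 10 to 20 kb before it fell. Upstream, the intergenic sequence 1 to 2 kb from the nearest TSS held 17.6 members per Mb, and this fell through 7.46 at 5 to 10 kb to 4.79 at 40 to 50 kb. Downstream, beyond the gene's own body, it was 6.05 per Mb at 1 to 2 kb (7 members only), highest at 10 to 20 kb with 9.42, and 6.67 at 40 to 50 kb. Of all members 2660 lay upstream (69.0%, 67.5 to 70.4), at a median of 12.3 kb, and 1197 downstream, at a median of 21.1 kb. The larger upstream number went with more sequence: 358.9 Mb of eligible sequence was upstream and 143.3 Mb downstream, which gives 7.41 and 8.36 members per Mb. The median distance over all members was 15.1 kb (quartiles 6.24 and 27.7). In all, the eligible sequence of 502 Mb, 19.0% of the genome assigned to the 4 position classes, held 7.68 members per Mb. Gene bodies held 4.93 genic DHSs per Mb and the intergenic sequence beyond 50 kb held 1.98.

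**Figure D2:**
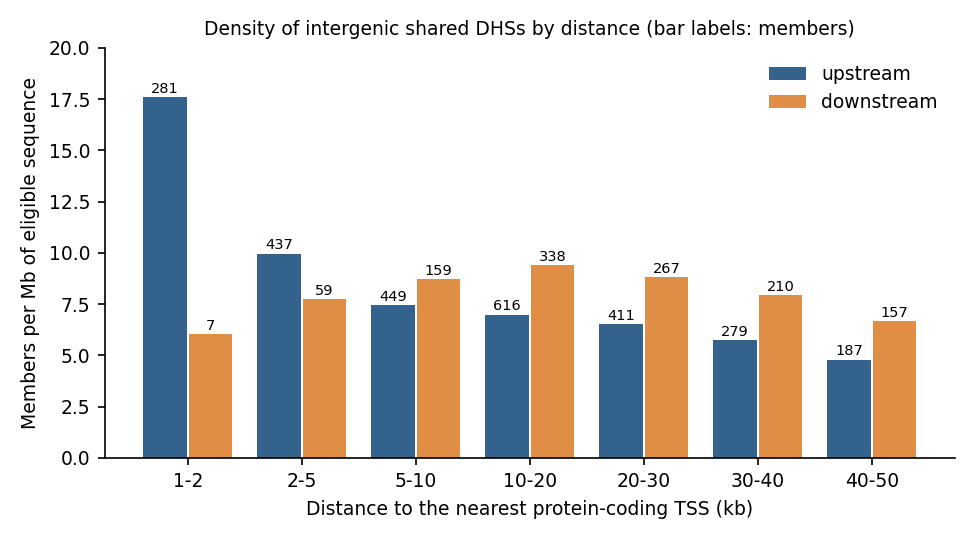
Members per Mb of eligible intergenic sequence (y axis) by distance to the nearest protein-coding TSS in kb (x axis), upstream and downstream of it; the number over a bar is its count of members. The upstream bars fall from 17.6 to 4.79 and the downstream bars peak at 9.42 between 10 and 20 kb.

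The limits of the rule cut through a continuous range. Just inside 50 kb were members at 49959 bp from Ubash3b (1.27 and 2.69) and 49969 bp from Mef2d (0.584 and 1.05). Just outside were DHSs at 50027 bp from Chst14 (1.81 and 2.84) and 50083 bp from 2010111I01Rik (2.92 and 7.96). At the near limit, a member just past 1 kb was by Slc5a5 (1.20 and 1.69).

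Signal changed little across the 50 kb. The median was 1.10 and 2.06 at 1 to 2 kb and 0.971 and 1.76 at 40 to 50 kb. Sequence close to promoters differed more. Of the 288 members at 1 to 2 kb, 41.7% had a CpG ratio (observed over expected CpG) of 0.6 or more, against 22.3% to 29.3% in the wider bins. A CTCF match was in 10.8% (7.43 to 14.9) of the nearest members and in 18.3% to 23.7% of those farther away. The nearest gene had a shared promoter DHS of its own for 78.5% of members at 1 to 2 kb, 56.8% at 10 to 20 kb and 66.0% at 40 to 50 kb. Over all members this share was 61.8% (60.3 to 63.4), below the 71.3% of genic DHSs and 71.5% of intergenic DHSs beyond 50 kb. Counted by gene and not by DHS, 55.7% of all protein-coding genes had a shared promoter DHS. By gene, 54.8% of the 19060 genes with no member had a promoter DHS, 61.5% of the 2222 with 1 member, 64.2% of the 481 with 2, and 105 of the 175 with 3 or more (52.3% to 67.3%). The share of genes with an open promoter thus did not climb steadily with the number of members.

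Nearly every member held footprints. The deposited footprint files placed at least 1 in both libraries in 94.7% of members (93.9 to 95.4), with medians of 2 in replicate 1 and 3 in replicate 2. The share was 89.6% for promoter DHSs, 92.0% for genic DHSs and 93.2% for intergenic DHSs beyond 50 kb. In 87.8% of members a footprint of replicate 1 overlapped one of replicate 2, against 80.6% of promoter DHSs. Only 48 members (1.24%) had none in either library. Footprints followed signal: with members in 4 equal groups by mean rank, 99.7% of the highest group had them in both libraries and 85.0% of the lowest.

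Of 24 consensus sequences, that of CTCF had the highest ratio to flanking sequence. The consensus, a 12-base core of the CTCF site, was in the central 150 bp of 773 members (20.04%, 18.8 to 21.3). Windows of the same length 1 kb to either side, outside any call, held it in 10 of 7022 cases (0.142%), which makes a ratio of 141. All matches here were sought on both strands. The share was 18.4% in genic DHSs, 15.5% in intergenic DHSs beyond 50 kb and 1.32% in promoter DHSs. The 780 matches took 16 forms, and the commonest are given below with the number of matches that had a footprint in both libraries, to show the letters behind the matches. CCACCAGGGGGC had 112 matches (111 with footprints), CCAGCAGAGGGC had 88 (80 with footprints) and CCACCAGGTGGC, the form in the Slc17a7 member, had 85 (84 with footprints). The form with the lowest footprint share, CCAGTAGAGGGC, had 6 of 8.

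Footprints sat on the CTCF core in both libraries. At least 50% of the match was covered in 96.8% of matches in replicate 1 and 98.7% in replicate 2, and in 96.0% (94.4 to 97.3) in both. Stretches of the same length shifted by 60 bp inside the same members were covered in both libraries in 9.10% of cases. Around the matches, read on the strand of the consensus, coverage had a plateau over the core and a second, lower peak before it. Coverage was 96.2% and 98.5% at 4 bp after the core's centre, 41.3% and 56.9% at 21 bp before it, and 27.6% and 45.3% in the dip at 13 bp before it. No such peak stood on the other side, where coverage at 30 bp was 1.15% and 1.54%. CTCF is known to contact a further short motif upstream of its core at some sites, and that motif was not searched here.

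**Figure D3:**
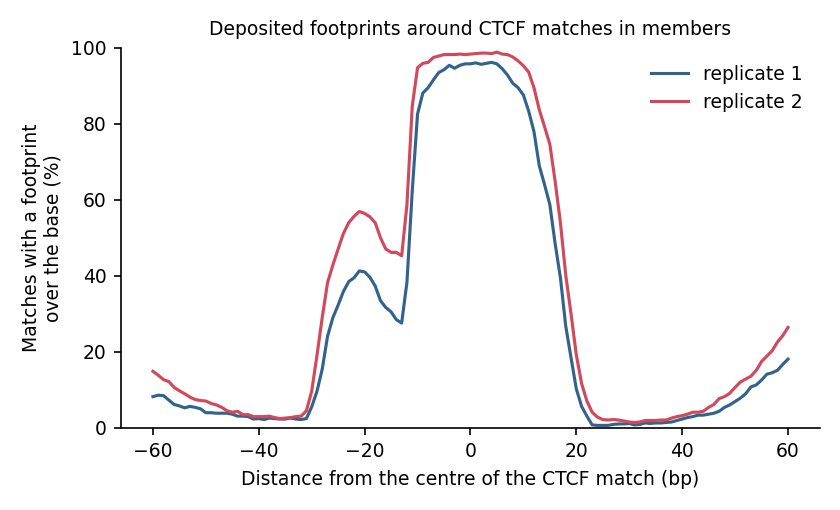
Share of the 780 CTCF matches in members with a deposited footprint over each base (y axis, %) by distance from the centre of the match in bp, read on the strand of the consensus (x axis), for each library. Both lines reach over 95% on the core and have a second peak at 21 bp before it, of 41.3% in replicate 1 and 56.9% in replicate 2.

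The CTCF members differed from the rest in other ways. Their matches lay at a median of 10 bp from the middle of the DHS, and 82.6% were within 25 bp of it. Median signal was 1.20 and 2.09 with a match and 0.995 and 1.87 without. Footprints in both libraries were in 99.7% of members with a match (771 of 773) and in 93.4% without. The strongest, 5.62 kb upstream of Ppp1r1b, the gene of the phosphatase regulator DARPP-32, had 3.88 and 8.86. In the 4 groups by mean rank, from the highest to the lowest, the CTCF share was 23.7%, 24.4%, 21.2% and 10.9%. The core read towards the nearest TSS in 335 of 780 matches (42.9%, 39.4 to 46.5). This share was 45.7% (41.3 to 50.2) in upstream members and 37.9% (32.2 to 43.9) in downstream members.

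E-boxes, the sites of the neuronal basic helix-loop-helix factors, gave excesses that lay largely in CTCF matches. The TCF4 E-box CAGGTG was in 15.9% of members and 12.1% of flanks, and the NEUROD E-box CAGATGG in 6.33% and 3.90%. Both words can form part of the CTCF core, and 161 of 678 TCF4 matches and 65 of 249 NEUROD matches shared bases with a CTCF match. With those set aside, the shares were 12.3% (11.3 to 13.4) of members against 12.1% (11.4 to 12.9) of flanks for TCF4, and 4.67% (4.02 to 5.38) against 3.89% (3.45 to 4.37) for NEUROD. The ratios became 1.02 and 1.20. Footprints in both libraries covered 50.1% of all TCF4 matches but 35.4% of those free of CTCF, where shifted stretches had 23.0%. For NEUROD the values were 41.8% of all matches and 23.4% of those free of CTCF, with 19.0% in shifted stretches.

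After CTCF the highest ratios belonged to consensus sequences rich in CpG or GC, all of them rare. The CRE, TGACGTCA, bound by CREB family factors, was in 21 members (0.544%) against 0.0142% of flanks, a ratio of 12.7 with the flank count of 1 set to 3. EGR sites (GCGGGGGCG or GCGTGGGCG), bound by the early growth response factors, were in 32 (0.830%, ratio 8.32), NRF1 in 11 (ratio 6.68, flank count set to 3) and the ETS site ACCGGAAGT in 7 (ratio 4.25). The SP site GGGGCGGGG was in 94 (2.44%, ratio 3.57). Promoter DHSs held all of these more often, for example the SP site in 11.04% and EGR in 4.05%. Members had a median GC content of 54.7% in the central 150 bp and flanks 47.3%, and the CpG ratios were 0.401 and 0.196. These ratios moved with GC content. Among member and flank windows with a GC content between the members' quartiles, the ratio was 67.5 for CTCF (469 of 2087 members and 7 of 2102 flanks), 4.70 for the CRE (14 members, with 3 set for a flank count of 0), 1.68 for EGR (5 members and 3 flanks), 1.04 for SP and 1.02 for the TCF4 E-box. NRF1 was then in 4 members (0.192%) and 1 flank (0.0476%), too few for a ratio. With flanks 2 kb away the CTCF ratio was 144 and the CRE ratio 3.0. Over the calls of a single library these ratios were lower too: with replicate 1 alone they were 77.6 for CTCF, 4.31 for the CRE and 4.797 for EGR, and with replicate 2 alone 81.03, 8.89 and 6.51.

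Several sites of factors with roles in cortex were less frequent in members than in flanks of any GC content, and this order did not hold for all of them at like GC content. The AP-1 site TGANTCA was in 3.27% of members (2.73 to 3.88) and 3.89% of flanks (3.45 to 4.37). SOX sites (ACAA, then A or T, then A or G, then G) were in 8.48% and 9.93%, the homeodomain site TAATTA in 1.48% and 3.73%, and the TBR1 site AGGTGTGA in 0.285% and 0.797%. Among windows with a GC content between the members' quartiles, the shares in members and flanks were 8.24% and 7.66% for SOX, 1.05% and 0.904% for the homeodomain site, 3.31% and 3.52% for AP-1 and 0.383% and 1.43% for TBR1. SOX and homeodomain sites thus had slightly higher shares in members there. Over the calls of a single library the AP-1 ratio to flanks was 1.09 with replicate 1 and 1.05 with replicate 2, against 0.840 for members. AP-1 matches in members were covered by a footprint in both libraries in 7.63% of cases, fewer than the 26.0% of shifted stretches, and SOX matches in 12.6% against 26.1%. For the SP site the order was the opposite, 34.9% against 12.3%. The full NFI and REST consensus was in none of the 3857 members, which allows a share of up to 0.0956% by the exact interval. No match to any of the 24 consensus sequences was found in 1983 members (51.4%). A missing match says only that these letters were not in the window.

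**Figure D4:**
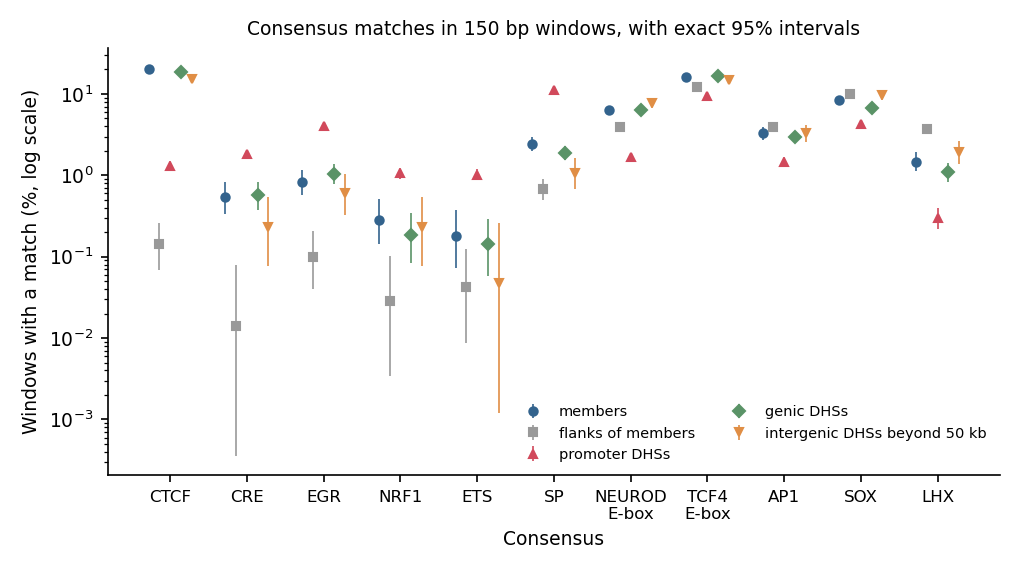
Share of 150 bp windows with a match to each consensus (y axis, %, log scale) in members, their flanks and the other shared DHSs, with exact 95% intervals; shares of 0 are not drawn. CTCF stands at 20.04% in members against 0.142% in flanks, while the E-box matches include those inside CTCF matches.

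Genes of transfer RNAs marked another set. A RefSeq tRNA gene overlapped 95 members (2.46%), against 0.245% of promoter DHSs (37), 0.143% of genic DHSs (7) and 0.282% of intergenic DHSs beyond 50 kb (6). RNA polymerase III transcribes tRNA genes from promoters inside the gene, so these members lie on starts that the rule, built on protein-coding and long non-coding genes, did not count. They had a median signal of 1.37 and 2.94, against 1.03 and 1.91 in other members, and 45 of the 95 were in the highest of the 4 rank groups. Their median CpG ratio was 0.824 against 0.392. Only 1 held a CTCF match. They overlapped 101 tRNA genes by at least 1 bp, of which 85 lay wholly inside a member, most often for leucine (12), proline (10) and arginine (8), and 50 protein-coding genes were their nearest. Of 242 RefSeq tRNA genes at positions the rule allows, 41.7% were in a shared DHS, near the 38.2% of all 403 RefSeq tRNA genes.

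The Lrp3 member, printed above, covered a threonine tRNA gene of 74 bp at chr7:35234770-35234843. Its signal values were 3.37 and 11.04, with 4 and 3 footprints that covered 39.2% and 56.8% of the tRNA gene. Over all tRNA genes in members the median coverage by footprints was 20.3% and 37.0%. Members with tRNA genes clustered: 6 were nearest to Aurkb, a mitotic kinase gene, 5 each to Hfe2 and Trim27, and 4 each to Abt1 and Fcgr4. For these clusters the protein-coding gene is only the nearest landmark.

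Some members, those with tRNA genes included, lay near starts of other annotations. A RefSeq transcript start was within 1 kb of 439 members (11.4%, 10.4 to 12.4), against 10.9% of genic DHSs and 8.18% of intergenic DHSs beyond 50 kb. Inside a long non-coding gene were 390 members (10.1%), against 3.98% of genic DHSs, 16.4% of those beyond 50 kb and 10.6% of all shared DHSs. A CpG ratio of at least 0.6 with a GC content of at least 55% marked 708 members (18.4%). These had a median width of 280 bp and signals of 1.26 and 2.84, against 200 bp, 0.999 and 1.80 in the others. A RefSeq start was within 1 kb of 23.9% of them (20.8 to 27.2) and of 8.57% of the others, and a CTCF match was in 5.93% and 23.2%. CTCF and CpG-rich members were thus largely separate sets. Between the libraries the median ratio of replicate 2 to replicate 1 was 2.19 in CpG-rich members, 2.07 in those with a tRNA gene, 1.75 in those with a CTCF match and 1.85 over all members, beside 2.45 in promoter DHSs.

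Curated regulatory elements of RefSeq overlapped 41 members (1.06%, 0.764 to 1.44), against 0.619% of all shared DHSs. The share was 1.46% (0.992 to 2.06) in intergenic DHSs beyond 50 kb, 0.776% in genic and 0.337% in promoter DHSs. Of the 41 members, 35 lay in 31 enhancers of the VISTA collection, which tests sequences in transgenic mouse embryos. A member 9.45 kb from Bhlhe41, a clock repressor gene, lay in mm1548, recorded as active in forebrain. In all, 8 members lay in enhancers with forebrain activity, 25 in ones active in brain, neural tube or ganglia, and 10 in ones active in heart. These tissues were not counted for the other shared DHSs. A member 28.4 kb upstream of Sox10 lay in MCS4, an enhancer recorded as active in oligodendrocytes and peripheral nerve, and had weak signals of 0.696 and 1.20.

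Members were spread thinly over genes. Of 21938 protein-coding genes, 2878 (13.1%) were nearest to at least 1 member: 2222 to 1, 481 to 2, 111 to 3, 33 to 4 and 31 to 5 or more. Most members stood alone, but 38.5% (37.0 to 40.1) had another shared DHS within 5 kb. That share was 41.8% over all shared DHSs, 47.4% in promoter, 35.7% in genic and 21.8% in intergenic DHSs beyond 50 kb. Cdh5, the gene of the endothelial cadherin, had the most, with 21 members over 31.2 kb upstream of it. These were weak, with signals of 0.117 to 0.448 in replicate 1 (median 0.229) and 0.126 to 1.16 in replicate 2 (median 0.213), 6 had footprints in both libraries, and the gene had no shared promoter DHS. Sik1, which encodes a kinase, had 12 members over 8.74 kb that were also weak, with medians of 0.203 and 0.209. Of these, 8 had footprints in both libraries, and Sik1 did have a shared promoter DHS. All 76 members under 0.3 in either library lacked a CTCF match, and 18 of the 76 belonged to Cdh5 and 12 to Sik1. Gm21860 had 14 members near the end of chromosome Y, with medians of 0.911 and 1.65. Chromosome Y held 22 members in all, although the labels give female animals, and the origin of these tags was not tested. Abt1 and Tpra1 had 8 each, and 4930467E23Rik, Actg1, Emc10 and Trim27 7 each.

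Genes switched on by neuronal activity had members most often of 16 gene lists, a description with no test. Of 16 such genes, which encode mostly immediate early transcription factors, 11 (68.8%) were nearest to at least 1 member, against 13.1% of all protein-coding genes, and all 16 had a shared promoter DHS. Their 20 members had median signals of 1.42 and 3.94, against 1.04 and 1.92 over all members, and 17 were above both of those medians. Their median CpG ratio was 0.769 and their median GC content 65.3%. The median ratio of replicate 2 to replicate 1 was 2.70, so the higher level was more marked in replicate 2.

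Fos, the AP-1 subunit, had 3 members. The one 12.2 kb downstream of its TSS, printed above, had 2.55 and 6.66, with 3 footprints in each library. The one 18.5 kb upstream, at chr12:85455101-85455640, had 1.80 and 7.40 and lay in the VISTA enhancer mm260, recorded as active in heart. The third, 1.56 kb upstream, had 0.948 and 1.76, near the medians of all members. Its paralogue Fosb had a member 10.04 kb upstream with 1.71 and 5.81, which also lay in a VISTA enhancer recorded as active in heart, mm567.

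Egr3, an early growth response factor gene, had 3 members within 2.56 kb upstream. The middle one had 1.75 and 5.46, and those beside it had 0.962 and 1.73 and 1.05 and 1.80. Egr1 had 2 adjoining members, 26.1 and 26.3 kb downstream, with 1.24 and 2.39 and with 1.66 and 4.51. The orphan nuclear receptor genes Nr4a1 and Nr4a3 had 2 each. Those of Nr4a1 had 1.34 and 3.38 at 13.3 kb upstream and 1.49 and 6.16 at 7.81 kb. Those of Nr4a3 had 1.90 and 3.90 at 2.14 kb upstream and 1.53 and 6.88 at 1.72 kb. Npas4, a factor that neuronal calcium entry induces, had a member 11.7 kb upstream with 1.504 and 6.04. Jun and Junb each had 1, at 1.05 and 1.22 kb upstream, with 1.48 and 3.99 and with 1.36 and 4.79. Dusp1, a phosphatase gene, had 2 with CTCF matches, 41.6 and 45.6 kb downstream, at 1.19 and 2.65 and at 1.29 and 2.08. Btg2, an antiproliferative gene, had 2, and the one 18.02 kb downstream, with 1.22 and 3.57, lay in the VISTA enhancer mm1445, recorded as active in forebrain and other neural tissue.

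**Figure D5:**
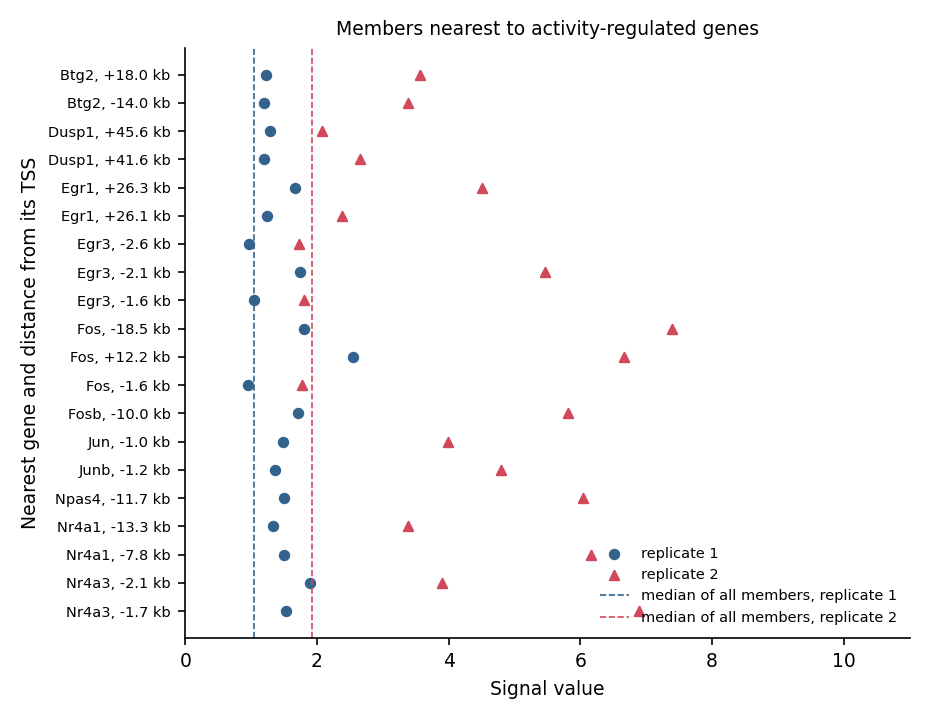
Signal value (x axis, the authors' unit) of the 20 members nearest to activity-regulated genes in replicate 1 (circles) and replicate 2 (triangles), each named by its gene and its distance upstream (minus) or downstream (plus) of the TSS in kb; dashed lines are the medians of all members. In 17 of the 20 both values are above the medians of 1.04 and 1.92, and the highest in replicate 2 is the Fos member 18.5 kb upstream, at 7.40.

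Genes of cortical neurons also had members, with median signals by list of 0.696 to 1.27 in replicate 1 and 1.17 to 2.11 in replicate 2. The deep-layer list had the lowest of these medians in both libraries, below the lower quartiles of all members. Of the glutamatergic list 6 of 12 genes had one, of the upper-layer list 5 of 12, of the deep-layer list 5 of 13 and of the interneuron list 6 of 20, against 13.1% of all genes, a difference that was not tested. The Slc17a7 member, 1.60 kb upstream of the gene of the vesicular glutamate transporter VGLUT1, had 2.48 and 8.07 with 5 footprints in each library, although no shared promoter DHS was called at the gene. The neurogenic factor genes Neurod1, Neurod2, Neurod6 and Neurog2 had 3, 1, 1 and 1 members. The strongest of these, 9.04 kb upstream of Neurod2, had 1.39 and 3.27, and those of Neurod1 had 0.551 to 0.588 in replicate 1 and 0.677 to 2.45 in replicate 2. Pou3f3, a POU factor of upper-layer neurons, had 6 members with medians of 1.04 and 1.89, of which 5 were inside the long non-coding gene Pantr1 next to it. The POU factor gene Pou3f2 had 3, and Plxnd1, a semaphorin receptor gene, 1 with 2.03 and 3.65. Among deep-layer genes, Fezf2 and Tbr1 had 2 each and Bcl11b, Foxp2 and Nxph4 1 each. The Bcl11b member, 38.2 kb upstream, had 0.887 and 1.17. Fezf2 and Tbr1 members had 0.654 to 0.738 in replicate 1, below the lower quartile of all members. No member was nearest to Mef2c, Ier2 or Olig2.

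Interneuron genes with members were Dlx2, Dlx5, Maf, Nr2f2, Sp9 and Sst, each with 1. The highest was near Nr2f2, the gene of a nuclear receptor of interneurons, with 1.87 and 3.83. Of 18 synaptic genes 5 had members, 9 in all, with medians of 0.691 and 1.36, below those of all members, while 17 of the 18 had a shared promoter DHS. The highest by mean rank was upstream of Bsn, a presynaptic scaffold gene, with 1.16 and 3.91, while a member of Shank2, a postsynaptic scaffold gene, was higher in replicate 1 and lower in replicate 2, with 1.26 and 2.66.

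Glial genes also had members. The astrocyte list had them at 5 of 16 genes, the oligodendrocyte precursor list at 5 of 12, the myelin list at 4 of 13 and the microglia list at 5 of 15. The Gfap member, 3.79 kb upstream of the astrocyte filament gene, held a CTCF match and had 1.32 and 2.75. Id3, an inhibitor of helix-loop-helix factors, had 3 members with 0.733 to 1.09 and 1.93 to 2.43. Mog, which encodes a myelin surface protein, had a member 5.46 kb upstream with 1.86 and 5.47 and 8 footprints in replicate 2, and no shared promoter DHS. Both members of Mobp, another myelin gene, held CTCF matches. The microglial receptor genes Cx3cr1 and Trem2 had 1 each, with 1.08 and 0.937 and with 1.11 and 1.99. The progenitor list had members at 4 of 15 genes, the highest 10.1 kb upstream of Nes, the gene of nestin, with 1.79 and 3.88.

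Lists for liver, lymphocytes, meninges with choroid plexus, and housekeeping genes were nearer to the share of all genes. Members were nearest to 2 of 14 hepatocyte genes, 2 of 15 lymphocyte genes, 2 of 12 meningeal and choroid plexus genes and 3 of 18 housekeeping genes. The widest member of all, 1960 bp, lay 20.5 kb downstream of Pck1, a gluconeogenic enzyme gene, with 0.757 and 1.30. The endothelial list had 5 of 18 genes with members, and 21 of its 26 members were those of Cdh5. As a check of the tissue, genes with a shared promoter DHS were counted by list, beside 55.7% of all protein-coding genes. Such a DHS was called at 12 of 12 upper-layer and 17 of 18 synaptic genes. It was also called at 7 of 12 glutamatergic, 7 of 13 deep-layer and 10 of 20 interneuron genes. It was called at 11 of 15 progenitor, 8 of 16 astrocyte, 5 of 12 oligodendrocyte precursor, 4 of 13 myelin and 3 of 15 microglia genes. Vessel genes had it at 6 of 18, and meningeal and choroid plexus genes at 3 of 12. It was called at all 18 housekeeping genes, 1 of 14 hepatocyte genes and 0 of 15 lymphocyte genes. The glutamatergic, deep-layer, interneuron and astrocyte shares were near that of all genes and do not set the tissue apart.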

How the data were processed

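DNase-seq calls of 2 libraries were analysed in mm10 coordinates, per the file headers. The deposited peak lists hold the authors' signal value of each call, whose scaling is not stated. Its low values were whole multiples of 0.00467 in replicate 1 and 0.00788 in replicate 2, which would be 1 tag each if the libraries held 214 and 127 times 1000000 tags, so the median member would rest on 223 and 244 tags. The authors' false discovery rates (q-values) of the cut rate are listed only under 0.05. The deposited footprints carry the p-value or rate 0.01 on every line, used as a threshold. No aligner, caller or setting is given in the sources used here. The stricter list of each library was used, with TSSs of GENCODE M21 basic transcripts on GRCm38. RefSeq of the same build gave tRNA genes, elements and sequences. Consensus matches were exact and counted in the central 150 bp. Shares carry exact (Clopper-Pearson) 95% intervals. Scripts used Python 3.11.15, numpy 2.4.6, scipy 1.17.1 and pandas 2.3.3, and were tested on simulated data. The named members were the 10 highest by mean rank, the 10 genes with most members, the highest member of each gene list and of each of the 6 consensus sequences with the highest ratios, and those of 12 chosen genes; others were named after their values were seen. The members, lists and rules were chosen with earlier results of these data known. Some members that these rules name are not reported here.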

Additional observations from a re-analysis of the deposited data

How the results depend on the processing

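Every alternative kept the CTCF share far above the flanks and the upstream share above 50%. Under the main rule 358.9 Mb of eligible sequence was upstream and 143.3 Mb downstream. An upstream share above 50% thus goes with the sequence available. Several values moved by more than the SD of the 2 single-library values. That SD comes from 2 values, close for the upstream share and far apart for footprints. It does not measure the spread between processing choices. With the lenient lists there were 7086 members of median width 220 bp, of which 15.3% held a CTCF match, 69.5% were upstream and 70.2% had a nearest gene with a promoter DHS. An overlap of 50% of both calls gave 68.5% upstream and 49.4% with a promoter DHS, and the stronger 50% of calls gave 14.2 kb, 68.1% and 59.1% for median distance and those shares. With 2.5 kb kept free, members were 12.9% of shared DHSs, at a median of 17.0 kb, 66.1% upstream and 60.3% with a promoter DHS. A 25 kb limit gave 10.4%, 9.60 kb, 73.7% and 60.5%, and TSSs of all transcripts gave 13.97 kb, 62.0% and 65.3% for the last 3. Without chromosome Y, an alternative added after seeing the data, 69.4% were upstream. Single libraries, without replicate 1 or without replicate 2, gave 7228 to 10703 members, 15.5% to 18.03% of the DHSs, at medians of 15.6 to 16.6 kb and 180 bp. Of these, 70.0% to 70.1% were upstream, 68.1% to 69.4% had a promoter DHS, 7.86% to 14.1% a CTCF match and 35.7% to 67.7% footprints of both libraries. Promoter DHSs were counted anew from each alternative's own DHSs, in single libraries from all calls of that library. The promoter shares here and the 61.8% of the main rule can thus rest on different promoter DHSs. The CTCF ratio ranged from 67.5, with windows restricted by GC content (also added after seeing the data), to 191 and the share with a tRNA gene from 0.906% to 3.13%. No paired analysis was possible because there was 1 group. Precision is limited by 2 libraries, by a tag density of unstated scale, and by the F1 hybrid genome being read on 1 reference.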
